A study of Gallus gallus with 6 samples.

Results

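The genes described here encode the proteins of the basement membrane and the receptors through which cells hold on to it. The rule that selects them reads names only: every gene whose name begins as that of a laminin chain or of an integrin alpha or beta chain, together with NID1, NID2, HSPG2, AGRN, FN1, TNC, DAG1 and VTN. The rule found 37 of the 24356 genes in the count table. Of these, 15 encode matrix proteins (9 laminin chains, NID1, HSPG2, AGRN, FN1, TNC and VTN), 10 are integrin alpha chains, 7 are integrin beta chains and 1 is DAG1. The remaining 4 (ITGB1BP1, ITGB1BP2, ITGB1BP3 and ITGB3BP) were found through the start of their names and are not integrin chains. LAMA2, LAMC3, ITGA1, ITGA5, ITGB4, ITGAD and NID2 are listed by RefSeq for the chicken but were not analysed here.

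The study asked what the transcription factor Sox8 changes in ectoderm outside the ear region, and sequenced RNA from sorted chick head ectoderm cells. Embryos at head fold stages were electroporated outside the egg, grown at 38 °C for 16 to 24 h, and the head was collected after its own otic placode had been taken away. The 3 Sox8OE samples received a Sox8 and mCherry plasmid (pCES-Sox8-mCherry) plus an EGFP reporter of the otic Lmx1a enhancer Lmx1aE1 (pTK-Lmx1aE1-EGFP), and the 3 Control samples received pCES-mCherry plus pCES-EGFP. In both groups cells positive for mCherry and EGFP were sorted, so only Sox8OE cells were also selected for activity of an otic enhancer, and the effects of Sox8 and of that selection cannot be told apart. The labels do not say how many embryos went into each sample.

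A basement membrane is a sheet of extracellular matrix under an epithelium. Laminins, each made of an alpha, a beta and a gamma chain, form a network that NID1 (nidogen) and the proteoglycans HSPG2 (perlecan) and AGRN (agrin) tie to collagen IV, and fibronectin and vitronectin add ligands that cells grip through short peptide motifs. Integrins, pairs of an alpha and a beta chain, and dystroglycan bind these proteins from the cell side, and in the embryo they take part in placode folding, in epithelial shape and in cell migration.

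Total counts were between 26326573 and 43288221 in the Sox8OE samples and between 35377763 and 46586658 in the Control samples. SOX8 itself had 8554, 9889 and 9138 normalised counts (counts divided by the DESeq2 size factor of the sample) in Sox8OE samples 1, 2 and 3, against 854.4, 1685 and 968.1 in Control samples 1, 2 and 3, with plasmid transcripts included. Sox8OE sample 1 stood apart from its own group: over all genes its correlation with Sox8OE samples 2 and 3 was 0.945 and 0.959, and with the Control samples it was between 0.979 and 0.983. Results are therefore given with and without it. All 15 matched surface ectoderm markers, among them EPCAM and CDH1, were detected, and their summed normalised counts were 127039, 87846 and 71690 in the Sox8OE samples, against 62390, 68203 and 61248 in the Control samples. CLDN1 and EPCAM made up most of the sum in Sox8OE sample 1 and in the Control samples, and neither passed (DESeq2 adjusted p = 0.55 and 0.97). In DESeq2, 5 of the 15 (KRT18, KRT19, KRT7, DLX3 and DLX6) rose (background 3.94%) while 0 fell. Only DLX3 passed whichever sample was left out (largest adjusted p = 0.043). Those of 15 neural tube and forebrain markers were 46603, 31505 and 40346 in the Sox8OE samples, against 79492, 68696 and 69347 in the Control samples. HES5, a Notch target, made up most of each of these sums and did not pass (DESeq2 adjusted p = 0.097). In DESeq2, 5 of the 15 (NKX2-1, LHX9, LHX2, DBX1 and FABP7) fell (background 1.3%) while 0 rose. The call of FABP7 ended without any sample other than Sox8OE sample 1 (adjusted p between 0.065 and 0.17). The part of either difference in the results was not tested. In bulk RNA, fewer cells of a type and less RNA per cell cannot be told apart.

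In Sox8OE cells, fibronectin (FN1), the beta 3 integrin chain (ITGB3) and the alpha 9 integrin chain (ITGA9) rose between 3.31 and 3.45 times in mean normalised count, with no overlap between the groups. The laminin chains LAMB1 and LAMB2 and the integrin chain ITGA3 also rose, while vitronectin (VTN) and the integrin chain ITGA8 fell. Of the 33 members that received an adjusted p, 8 (24.2%) passed an adjusted p of 0.05 in DESeq2, against a background of 5.24% of the 16032 genes tested. Of these, 6 members rose (18.2%, background 3.94%) and 2 fell (6.06%, background 1.3%). When an absolute log2 fold change over 1.5 was also required, 6 members passed (18.2%, background 4.28%), without LAMB1 and ITGA8. Of these, 5 were higher (15.2%, background 3.32%) and VTN was lower (3.03%, background 0.961%). The median log2 fold change was 0.24 over the members tested and 0.08 over all genes tested. The members ranged between -1.56 and 3.09, with 21 above 0 and 12 below it.

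Under edgeR's quasi-likelihood test, 0 of the 33 members had an adjusted p under 0.05 (background 0.276% of 14862 genes), although 12 had an unadjusted p under 0.05 (36.4%, background 16.4%). Limma with voom also gave 0 (background 0.222%), and limma with sample quality weights gave 19 (background 50.2%). Without Sox8OE sample 1, DESeq2 gave 18 of 34 members (52.9%, background 39.4%), of which 12 were higher (background 17.8%) and 6 were lower (background 21.6%). FN1, ITGB3 and ITGA9 passed in DESeq2 whichever of the 6 samples was left out.

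**Figure D1:**
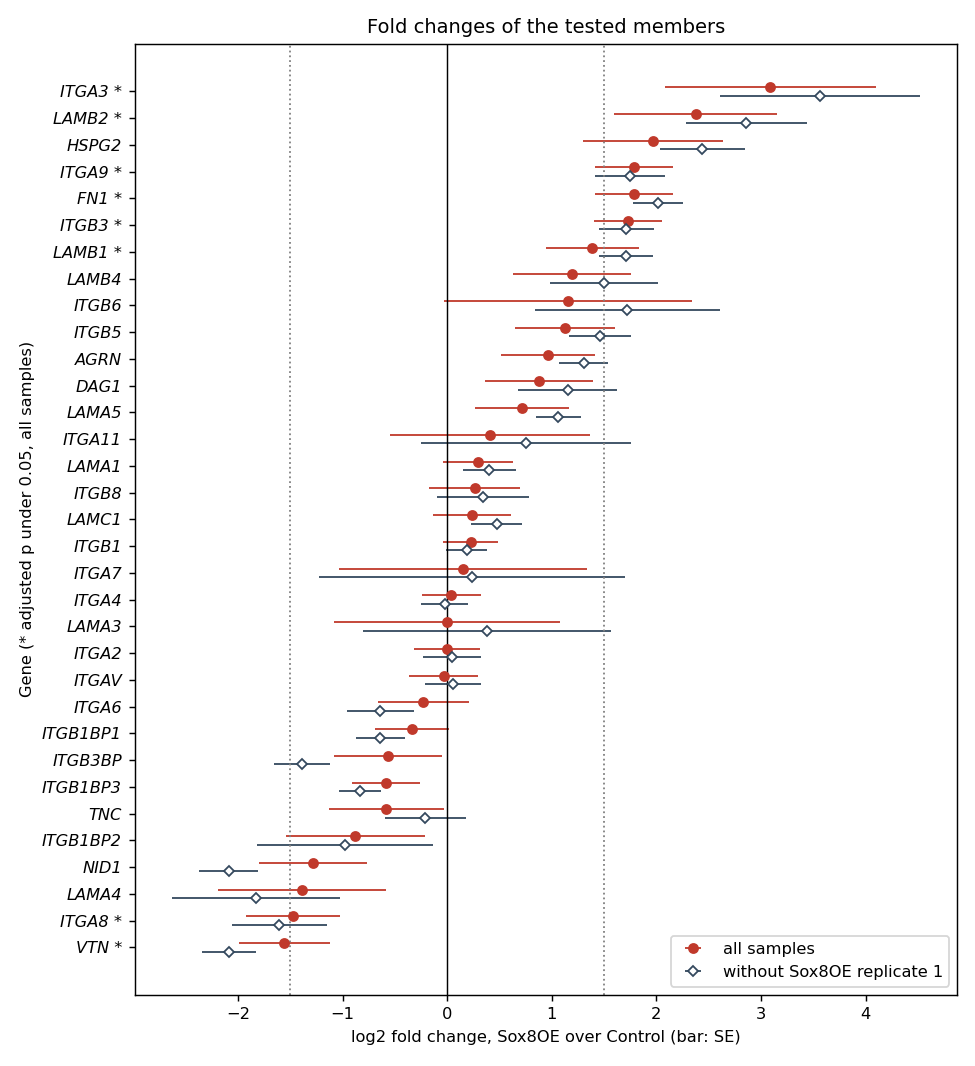
DESeq2 log2 fold change of Sox8OE over Control for the 33 members tested, ordered by size, from the fit on all samples (filled circles) and from the fit without Sox8OE sample 1 (open diamonds). Bars are the SE, dotted lines mark 1.5 in each direction and stars an adjusted p under 0.05 with all samples. ITGB3 and ITGA9 hardly differ between the fits, ITGA3 has the longest bar among the members that rose, and HSPG2, NID1 and LAMB1 move away from 0 without Sox8OE sample 1.

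Among the laminin alpha chains, which carry most of the sites that receptors bind, 0 of 4 passed the test in DESeq2 (background 5.24%). An unadjusted p under 0.05 was seen in 0 of the 4 (background 21.8%), too few chains for either count to differ clearly from its background. LAMA1 (ENSGALG00000014615), the chain of early embryonic basement membranes, had 6816, 8045 and 9981 normalised counts in Sox8OE samples 1, 2 and 3, against 7625, 5006 and 7623 in Control samples 1, 2 and 3. Sox8OE samples 2 and 3 were above every Control sample and sample 1 lay among them. LAMA1 had a log2 fold change of 0.29 ± 0.33 (SE, DESeq2 adjusted p = 0.6), with a 95% interval of -0.36 to 0.95.

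LAMA5 (ENSGALG00000005321), an alpha chain found under many epithelia, had 1260, 3973 and 3506 normalised counts in Sox8OE samples 1, 2 and 3, against 1630, 1853 and 1843 in Control samples 1, 2 and 3. Sox8OE sample 1 was the lowest of all 6 samples, and Sox8OE samples 2 and 3 were the highest. LAMA5 had a log2 fold change of 0.71 ± 0.45 (SE, DESeq2 adjusted p = 0.33) with all samples and of 1.06 (adjusted p = 6.9e-06) without Sox8OE sample 1. LAMA4, an alpha chain best known from vessel walls, had between 13.2 and 106.8 normalised counts in the Sox8OE samples and between 55.7 and 312.8 in the Control samples, with a log2 fold change of -1.39 ± 0.80 (SE, adjusted p = 0.29). LAMA3, the alpha chain of skin laminin, stayed below 45 normalised counts in every sample.

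Of the 3 laminin beta chains tested, 2 rose (background 3.94%), and the fourth, LAMB3, was nearly silent. LAMB1 (ENSGALG00000007905), the beta chain of the laminins first made in the embryo, had 12652, 32933 and 32302 normalised counts in Sox8OE samples 1, 2 and 3, against 7957, 13365 and 8423 in Control samples 1, 2 and 3. Sox8OE samples 2 and 3 were far above every Control sample, while sample 1 lay just under the highest Control sample, so the groups overlapped. LAMB1 averaged 25962 ± 11531 normalised counts in Sox8OE cells and 9915 ± 2997 in Control cells (SD, n = 3 each). This was a log2 fold change of 1.39 ± 0.45 (SE, DESeq2 adjusted p = 0.041). The call was lost without Sox8OE sample 2 or 3 and without Control sample 1 or 3 (adjusted p between 0.23 and 0.28) and with TMM factors (0.053), and without Sox8OE sample 1 the log2 fold change was 1.71 (adjusted p = 1.0e-09).

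LAMB2 (ENSGALG00000006802), which takes the place of the beta 1 chain in laminins of the neuromuscular junction and the kidney, had 30.2, 256.1 and 204.3 normalised counts in Sox8OE samples 1, 2 and 3. In Control samples 1, 2 and 3 it had 44.2, 33.7 and 16.6. Sox8OE sample 1 was within the Control range, and the other Sox8OE samples were several times above it. LAMB2 had a log2 fold change of 2.38 ± 0.78 (SE, DESeq2 adjusted p = 0.045), and of 2.86 (adjusted p = 6.6e-06) without Sox8OE sample 1. Leaving out any of the other 5 samples ended the call (adjusted p between 0.087 and 0.4).

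LAMB4 (ENSGALG00000007917), a beta chain of little known role that lies next to LAMB1 in RefSeq's gene order, had 103.4, 268.1 and 236.5 normalised counts in Sox8OE samples 1, 2 and 3, against 89.5, 127.1 and 48.9 in Control samples 1, 2 and 3. It had the same order of samples within the Sox8OE group as LAMB1. LAMB4 did not pass, with a log2 fold change of 1.19 ± 0.57 (SE, DESeq2 adjusted p = 0.2), and it passed without Sox8OE sample 1 (1.498, adjusted p = 0.012). The only gamma chain among the members, LAMC1 (ENSGALG00000004620), which is shared by most laminins, had 1057, 1973 and 1978 normalised counts in Sox8OE samples 1, 2 and 3, against 1282, 1689 and 1265 in Control samples 1, 2 and 3. The groups overlapped, with a log2 fold change of 0.24 ± 0.37 (SE, DESeq2 adjusted p = 0.71) and a 95% interval of -0.49 to 0.97.

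Over the 8 laminin chains tested, 7 had a log2 fold change above 0 and the median was 0.50, against 8500 of 16032 above 0 and a median of 0.08 over all genes tested. LAMA3 lay close to 0, and was on the other side with TMM factors and without Sox8OE sample 2 or 3 or Control sample 1 or 2, which left 6 above 0. The beta chains had a median of 1.39 and the alpha chains one of 0.15.

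**Figure D2:**
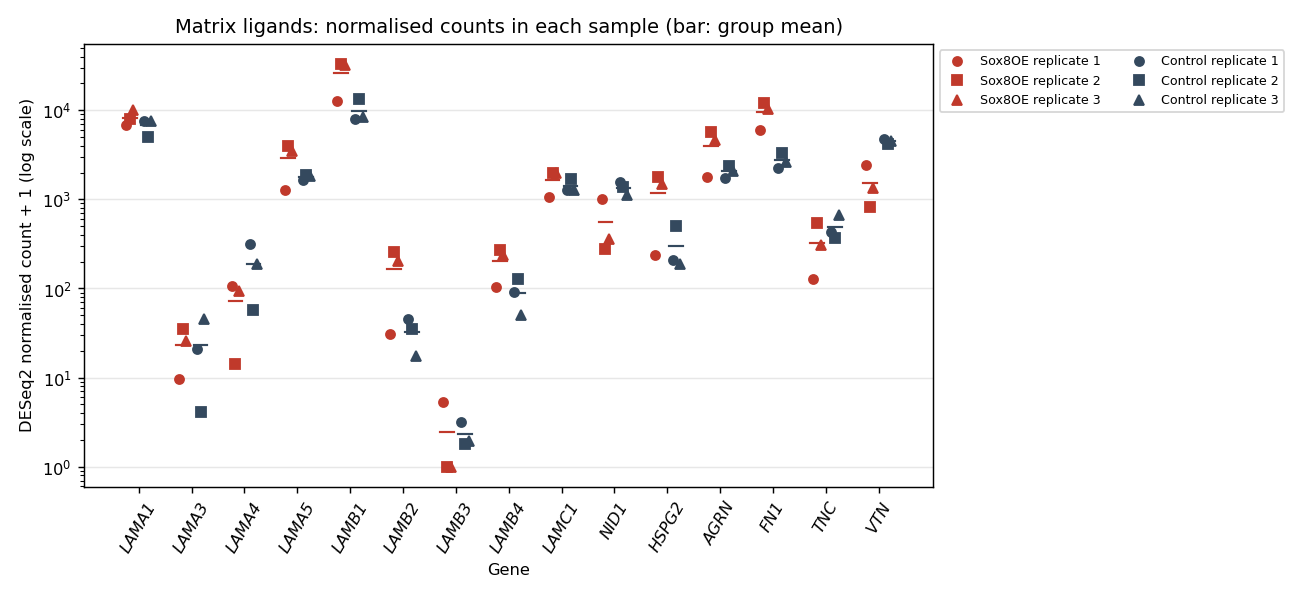
Normalised counts (log axis) plus 1 of the 15 matrix ligands in each sample, Sox8OE (red) left of Control (dark), with a symbol for each replicate number and the group mean as a bar. All 3 Sox8OE samples lie above Control for FN1 and below it for VTN and NID1, while for LAMB1, LAMB2, HSPG2 and AGRN Sox8OE sample 1 lies among the Control samples.

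Of the 3 proteins that tie the laminin network together, 0 passed in DESeq2 or in edgeR, and all 3 had an unadjusted DESeq2 p under 0.05 (background 21.8%). NID1 (ENSGALG00000042079), which bridges laminin and collagen IV, had 1021, 278.0 and 361.2 normalised counts in Sox8OE samples 1, 2 and 3, against 1553, 1363 and 1122 in Control samples 1, 2 and 3. All Sox8OE samples were below all Control samples, sample 1 only slightly. The log2 fold change of -1.28 ± 0.51 (SE) did not pass (DESeq2 adjusted p = 0.12), and it was -2.09 (adjusted p = 4.2e-12) without Sox8OE sample 1.

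HSPG2 (ENSGALG00000035717), the large heparan sulphate proteoglycan perlecan, had 236.9, 1779 and 1484 normalised counts in Sox8OE samples 1, 2 and 3, against 206.7, 500.6 and 186.4 in Control samples 1, 2 and 3. Sox8OE samples 2 and 3 were well above the highest Control sample, and sample 1 fell within the Control range. HSPG2 had a log2 fold change of 1.97 ± 0.67 (SE, DESeq2 adjusted p = 0.057), and of 2.44 (adjusted p = 2.9e-08) without Sox8OE sample 1. It also passed without Control sample 2 (2.56, adjusted p = 0.017), with total-count scaling (adjusted p = 0.022) and in limma with sample quality weights (adjusted p = 6.2e-05, background 50.2%). HSPG2 did not pass with TMM factors (adjusted p = 0.072), in edgeR (0.25) or in limma with voom (0.28). Nor did it pass in DESeq2 without Sox8OE sample 2 or 3 or Control sample 1 or 3 (adjusted p between 0.24 and 0.33).

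AGRN (ENSGALG00000039193), a proteoglycan that binds laminin and dystroglycan and is known for gathering receptors at the neuromuscular junction, had 1792, 5679 and 4579 normalised counts in Sox8OE samples 1, 2 and 3. In Control samples 1, 2 and 3 it had 1745, 2378 and 2056. The pattern was that of HSPG2, with Sox8OE sample 1 inside the Control range and the others above it. AGRN had a log2 fold change of 0.96 ± 0.45 (SE, DESeq2 adjusted p = 0.2), and of 1.31 (adjusted p = 3.9e-07) without Sox8OE sample 1.

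FN1 and VTN, ligands that share receptors of the alpha V family, moved in opposite directions. FN1 (ENSGALG00000003578), the fibronectin that lines migration routes and the underside of embryonic epithelia, had 5981, 11937 and 10419 normalised counts in Sox8OE samples 1, 2 and 3, against 2244, 3319 and 2657 in Control samples 1, 2 and 3. Even the lowest Sox8OE sample was above the highest Control sample. FN1 averaged 9446 ± 3095 normalised counts in Sox8OE cells and 2740 ± 542 in Control cells (SD, n = 3 each). Its log2 fold change was 1.79 ± 0.37 (SE, DESeq2 adjusted p = 0.00024), and it was between 1.57 and 2.02 when each sample was left out in turn (largest adjusted p = 0.034).

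VTN (ENSGALG00000003589), vitronectin, a protein of plasma and matrix, had 2450, 813.2 and 1324 normalised counts in Sox8OE samples 1, 2 and 3, against 4776, 4227 and 4480 in Control samples 1, 2 and 3. The Control samples lay close together, and all Sox8OE samples were below them. VTN averaged 1529 ± 837 normalised counts in Sox8OE cells and 4494 ± 275 in Control cells (SD, n = 3 each). On the log2 scale the fold change was -1.56 ± 0.44 (SE, DESeq2 adjusted p = 0.014), and -2.09 (adjusted p = 3.8e-14) without Sox8OE sample 1. The call ended without any of the other 5 samples (adjusted p between 0.053 and 0.14).

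TNC, tenascin C, a matrix protein of migrating cells and a ligand of alpha 9 integrin, had 125.8, 541.8 and 309.6 normalised counts in Sox8OE samples 1, 2 and 3, against 428.8, 371.2 and 662.7 in Control samples 1, 2 and 3. The groups overlapped and the log2 fold change was -0.58 ± 0.55 (SE, DESeq2 adjusted p = 0.52).

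Of the integrin alpha chains, 2 rose (background 3.94%), 1 fell (background 1.3%) and 6 did not pass among the 9 tested, and their median log2 fold change was 0.04. ITGA9 (ENSGALG00000029378), which pairs with the beta 1 chain and binds tenascin C, osteopontin and a spliced segment of fibronectin, had 1277, 1078 and 1341 normalised counts in Sox8OE samples 1, 2 and 3. In Control samples 1, 2 and 3 it had 498.5, 299.8 and 274.1. The Sox8OE samples lay close together, sample 1 included, and none came near the Control range. ITGA9 averaged 1232 ± 137 normalised counts in Sox8OE cells and 357 ± 123 in Control cells (SD, n = 3 each). Its log2 fold change was 1.79 ± 0.37 (SE, DESeq2 adjusted p = 0.00018), and between 1.63 and 2.10 with each sample left out in turn (largest adjusted p = 0.045).

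ITGA8 (ENSGALG00000008747), a partner of beta 1 that binds nephronectin, fibronectin and vitronectin, had 135.2, 119.8 and 95.7 normalised counts in Sox8OE samples 1, 2 and 3, against 422.2, 191.5 and 361.8 in Control samples 1, 2 and 3. The spread was in the Control samples, and the groups did not overlap. ITGA8 had a log2 fold change of -1.47 ± 0.45 (SE, DESeq2 adjusted p = 0.028). The call was lost without Sox8OE sample 2 or 3 and without Control sample 1 or 3 (adjusted p between 0.14 and 0.35).

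ITGA3 (ENSGALG00000032702), an alpha chain of a laminin receptor of epithelia, was sparse, with 17, 143 and 41 raw counts in Sox8OE samples 1, 2 and 3, against 2, 15 and 12 in Control samples 1, 2 and 3. After scaling, Sox8OE sample 1 (14.6 normalised counts) was barely above the highest Control sample (11.8), and Sox8OE sample 2 was far above all others. The log2 fold change of 3.09 ± 1.01 (SE, DESeq2 adjusted p = 0.045) rested on few reads. Without Sox8OE sample 2 it was 1.78 (adjusted p = 0.67), and the call also ended without Sox8OE sample 3 or any Control sample (adjusted p between 0.073 and 0.23), with TMM factors (0.052) and with the filter on low counts (0.05).

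ITGA4 (ENSGALG00000041577), the alpha chain of a fibronectin receptor used by neural crest, had 1680, 1572 and 1445 normalised counts in Sox8OE samples 1, 2 and 3, against 1392, 1581 and 1590 in Control samples 1, 2 and 3. The groups were interleaved, with a log2 fold change of 0.04 (DESeq2 adjusted p = 0.94) and a 95% interval of -0.51 to 0.59. ITGAV, the alpha V chain that pairs with beta 1, 3, 5, 6 and 8, had 1180, 1377 and 1602 normalised counts in Sox8OE samples 1, 2 and 3, against 1252, 1227 and 1777 in Control samples 1, 2 and 3. Its groups overlapped too, with a log2 fold change of -0.03 (DESeq2 adjusted p = 0.96) and a 95% interval of -0.68 to 0.61.

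ITGA6, the alpha chain of laminin receptors of epithelia and neural progenitors, ranged between 805.5 and 1952 normalised counts in the Sox8OE samples and between 1038 and 1826 in the Control samples (log2 fold change -0.23, DESeq2 adjusted p = 0.77). ITGA2, a collagen receptor chain, did not pass either, with a 95% interval of -0.61 to 0.61 for its log2 fold change (adjusted p = 1.0). ITGA7 and ITGA11, best known as laminin and collagen receptor chains of muscle and connective tissue, had at most 104.4 normalised counts in any sample and did not pass (adjusted p = 0.95 and 0.82).

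All 5 integrin beta chains tested had a log2 fold change above 0 (ITGB6 was below 0 in limma with voom), but only ITGB3 passed (background 5.24%). ITGB3 (ENSGALG00000000379), which with alpha V forms the vitronectin receptor and also binds fibronectin, had 9315, 9708 and 8719 normalised counts in Sox8OE samples 1, 2 and 3, against 2634, 3630 and 2110 in Control samples 1, 2 and 3. The Sox8OE samples hardly differed among themselves, and sample 1 was as high as the other two. ITGB3 averaged 9247 ± 498 normalised counts in Sox8OE cells and 2791 ± 772 in Control cells (SD, n = 3 each). The log2 fold change was 1.73 ± 0.33 (SE, DESeq2 adjusted p = 2.3e-05), and it lay between 1.56 and 1.95 with each sample left out in turn (largest adjusted p = 0.025). In edgeR the adjusted p was 0.065.

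ITGB5 (ENSGALG00000029766), another partner of alpha V and a vitronectin receptor chain, had 987.1, 2724 and 2754 normalised counts in Sox8OE samples 1, 2 and 3, against 974.8, 1316 and 670.0 in Control samples 1, 2 and 3. Sox8OE sample 1 was within the Control range and the other Sox8OE samples were above it. ITGB5 had a log2 fold change of 1.13 ± 0.48 (SE, DESeq2 adjusted p = 0.14), and of 1.46 (adjusted p = 8.5e-06) without Sox8OE sample 1.

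ITGB1 (ENSGALG00000007145), the common partner of most matrix-binding alpha chains, had 8043, 7609 and 7585 normalised counts in Sox8OE samples 1, 2 and 3, against 6499, 7009 and 6369 in Control samples 1, 2 and 3. The groups did not overlap, but the log2 fold change was only 0.23 ± 0.26 (SE, DESeq2 adjusted p = 0.61), with a 95% interval of -0.29 to 0.74. ITGB6 and ITGB8, alpha V partners that bind latent TGF-beta, did not pass (adjusted p = 0.56 and 0.73). ITGB6 had 0.86, 62.6 and 77.4 normalised counts in Sox8OE samples 1, 2 and 3, against 27.6, 7.06 and 28.6 in Control samples 1, 2 and 3.

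**Figure D3:**
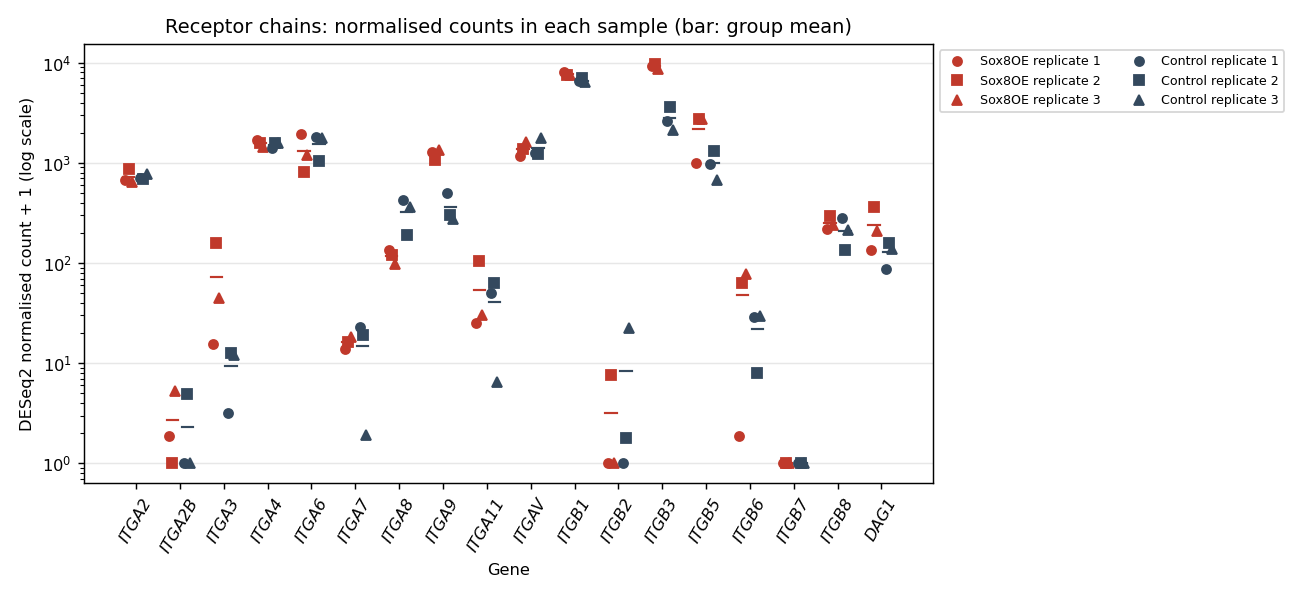
Normalised counts (log axis) plus 1 of the integrin chains and DAG1 in each sample, Sox8OE (red) left of Control (dark), with a symbol for each replicate number and the group mean as a bar. ITGB3 and ITGA9 are higher and ITGA8 is lower in all 3 Sox8OE samples, ITGAV and ITGA4 are interleaved, and ITGA3 is spread widely within Sox8OE.

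DAG1 (ENSGALG00000037784), the precursor of dystroglycan, a laminin, agrin and perlecan receptor outside the integrin family, had 135.2, 363.8 and 208.6 normalised counts in Sox8OE samples 1, 2 and 3. In Control samples 1, 2 and 3 it had 86.2, 158.5 and 138.4. Sox8OE sample 1 lay inside the Control range. DAG1 had a log2 fold change of 0.88 ± 0.52 (SE, DESeq2 adjusted p = 0.29), and of 1.15 (adjusted p = 0.039) without Sox8OE sample 1.

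Of the 37 members, 4 received no adjusted p. ITGB7, a chain of lymphocyte integrins, had no count in any sample. LAMB3, a skin laminin chain, ITGB2, the beta chain of white blood cells, and ITGA2B, the alpha chain of thrombocytes that pairs with ITGB3, had at most 23 raw counts in any sample. ITGA2B had 1, 0 and 4 raw counts in Sox8OE samples 1, 2 and 3, against 0, 5 and 0 in Control samples 1, 2 and 3.

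The 4 genes with integrin-like names that are not integrin chains had log2 fold changes between -0.88 and -0.34. In DESeq2, 0 of 4 passed (background 5.24%), with 0 at an unadjusted p under 0.05 (background 21.8%). ITGB1BP3 had 25685, 17054 and 16317 normalised counts in Sox8OE samples 1, 2 and 3, against 29337, 32978 and 26089 in Control samples 1, 2 and 3. The groups did not overlap, with sample 1 just under the lowest Control sample. Its log2 fold change was -0.58 ± 0.32 (SE, DESeq2 adjusted p = 0.27), and -0.83 (adjusted p = 0.00022) without Sox8OE sample 1. ITGB3BP, a centromere protein that binds the beta 3 tail, had 2896, 813.2 and 964.3 normalised counts in Sox8OE samples 1, 2 and 3, against 2735, 1769 and 2413 in Control samples 1, 2 and 3 (log2 fold change -0.57, DESeq2 adjusted p = 0.51). Without Sox8OE sample 1 its log2 fold change was -1.39 (adjusted p = 2.0e-06), and 3 of the 4 genes were lower at an adjusted p under 0.05 (background 21.6%).

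Counted over samples, some members had all Sox8OE samples above or all below the Control samples. In others, Sox8OE sample 1 stayed within the Control range while samples 2 and 3 left it on the same side. The remaining members, among them LAMA5, LAMC1 and ITGAV, had neither pattern. In 5 of the 33 members (ITGB1, ITGA9, FN1, ITGB3 and ITGA3; 15.2%, background 10.1%) all Sox8OE samples were above all Control samples. In another 5 (ITGA8, NID1, ITGB1BP2, ITGB1BP3 and VTN; 15.2%, background 9.09%) they were all below. In 8 members (LAMB1, LAMB2, LAMB4, LAMA1, AGRN, HSPG2, ITGB5 and DAG1; 24.2%, background 14.6%) Sox8OE samples 2 and 3 were above every Control sample while sample 1 was within the Control range. The reverse pattern was seen in ITGB1BP1 (3.03%, background 15%). The median over members of the log2 ratio to the Control mean was 0.04 in Sox8OE sample 1, 0.56 in sample 2 and 0.50 in sample 3.

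**Figure D4:**
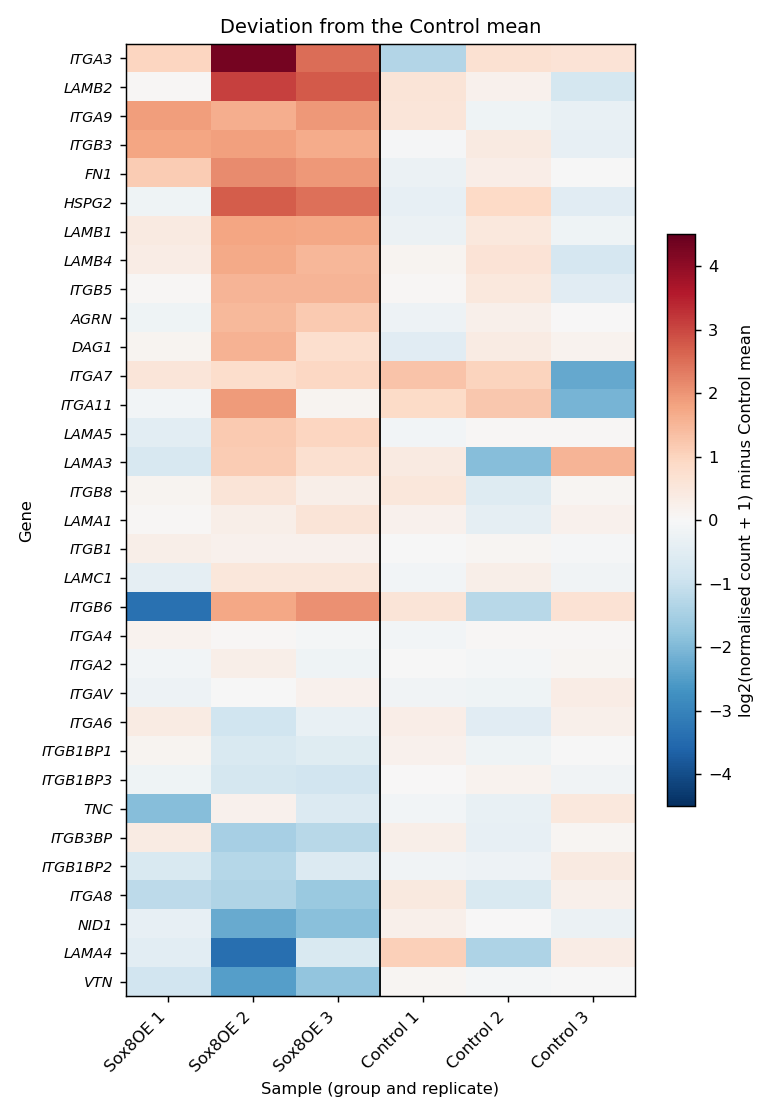
Difference of log2(normalised count + 1) from the Control mean for the 33 members tested, by sample (columns, Sox8OE left of Control) and gene (rows, ordered by the mean over the Sox8OE samples). Sox8OE sample 1 is coloured like the other Sox8OE samples at ITGB3, ITGA9, FN1 and ITGA8 and like the Control samples at LAMB2, HSPG2 and LAMB1.

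Ratios of raw counts within a sample do not depend on how samples are scaled, and 10 such ratios between members were chosen after their values were seen, so they are given as a description with no test. The ratio of FN1 to VTN was 2.44, 14.7 and 7.87 in Sox8OE samples 1, 2 and 3, against 0.470, 0.785 and 0.593 in Control samples 1, 2 and 3. All Sox8OE samples were above all Control samples, by 3.44 in the mean log2 ratio.

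The ratio of ITGB3 to its partner ITGAV was 7.89, 7.05 and 5.44 in Sox8OE samples 1, 2 and 3, against 2.10, 2.96 and 1.19 in Control samples 1, 2 and 3. That of ITGA9 to its partner ITGB1 was 0.159, 0.142 and 0.177 in Sox8OE samples 1, 2 and 3, against 0.0767, 0.0428 and 0.0430 in Control samples 1, 2 and 3. For ITGA8 to ITGB1 it was 0.0168, 0.0157 and 0.0126 in Sox8OE samples 1, 2 and 3, against 0.0650, 0.0273 and 0.0568 in Control samples 1, 2 and 3. The groups did not overlap in any of these, and relative to ITGB1 counts ITGA9 was higher and ITGA8 lower in each Sox8OE sample.

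The ratio of LAMB1 to LAMC1, chains that are built into the same laminin, was 11.97, 16.7 and 16.3 in Sox8OE samples 1, 2 and 3, against 6.21, 7.91 and 6.66 in Control samples 1, 2 and 3. Here Sox8OE sample 1 was outside the Control range, unlike for LAMB1 alone. The ratio of LAMB1 to LAMA1 was 1.86, 4.09 and 3.24 in Sox8OE samples 1, 2 and 3, against 1.04, 2.67 and 1.11 in Control samples 1, 2 and 3, and the groups overlapped.

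**Figure D5:**
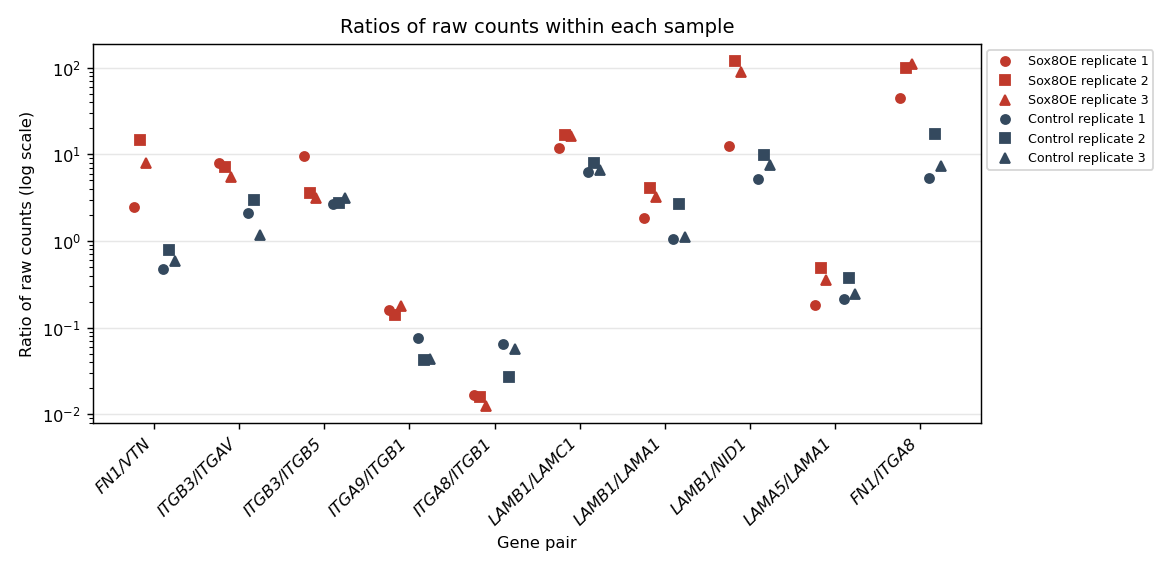
Within-sample ratios of raw counts between pairs of members (log axis), with Sox8OE (red) left of Control (dark) and a symbol for each replicate number. The groups are separate for FN1 to VTN, ITGB3 to ITGAV, ITGA9 to ITGB1, ITGA8 to ITGB1 and LAMB1 to LAMC1. They are also separate for LAMB1 to NID1 and FN1 to ITGA8, and barely so for ITGB3 to ITGB5. They overlap for LAMB1 to LAMA1 and for LAMA5 to LAMA1.

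Proteins that work with these members inside and around the cell were counted from lists. Of 23 focal adhesion adaptors tested, which link integrins to actin (talins, vinculin, kindlins and others), 0 passed in DESeq2 and 0 in edgeR, with 7 at an unadjusted DESeq2 p under 0.05 (background 21.8%) and a median log2 fold change of 0.05. Without Sox8OE sample 1, DESeq2 gave 8 higher (background 17.8%) and 4 lower (background 21.6%). Of 21 genes of the dystrophin complex and of dystroglycan glycosylation, 0 passed in DESeq2 and 0 in edgeR, with 2 at an unadjusted DESeq2 p under 0.05 (background 21.8%) and a median of 0.11. Without Sox8OE sample 1, DESeq2 gave 5 higher (background 17.8%) and 5 lower (background 21.6%).

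Among 32 other matrix glycoproteins tested, 2 rose (background 3.94%) and 1 fell (background 1.3%) in DESeq2, and the median was 0.04. SMOC1, a calcium-binding protein of basement membranes, had 2327, 4388 and 4496 normalised counts in Sox8OE samples 1, 2 and 3, against 1036, 987.2 and 1173 in Control samples 1, 2 and 3. The groups were well apart, with a log2 fold change of 1.81 ± 0.36 (SE, DESeq2 adjusted p = 1.0e-04). SPON1, the floor plate matrix protein F-spondin, had 11512, 9340 and 9578 normalised counts in Sox8OE samples 1, 2 and 3, against 3453, 5305 and 4007 in Control samples 1, 2 and 3 (log2 fold change 1.25 ± 0.31, SE, adjusted p = 0.0038), and its call ended without Sox8OE sample 3, Control sample 1 or Control sample 3 (adjusted p between 0.08 and 0.19). TGFBI, an integrin-binding matrix protein, was lower (log2 fold change -1.47 ± 0.49, SE, DESeq2 adjusted p = 0.048), and that call ended without any sample other than Sox8OE sample 1 (adjusted p between 0.17 and 0.3).

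Of 14 other matrix receptors tested, only SDC2, a heparan sulphate proteoglycan of the cell surface, passed (background 5.24%). SDC2 had 689.9, 1511 and 1174 normalised counts in Sox8OE samples 1, 2 and 3, against 353.7, 395.5 and 314.7 in Control samples 1, 2 and 3 (log2 fold change 1.67 ± 0.39, SE, DESeq2 adjusted p = 0.0018). That call ended without Sox8OE sample 2 or 3 or Control sample 1 or 3 (adjusted p between 0.051 and 0.083). Of the 4 basement membrane collagens matched, only COL18A1, the collagen that yields endostatin, rose (background 3.94%). Its log2 fold change was 1.16 ± 0.37 (SE, DESeq2 adjusted p = 0.035), with 1453, 2174 and 2796 normalised counts in the Sox8OE samples against 793.6, 1089 and 990.3 in the Control samples. The call of COL18A1 ended without any sample other than Sox8OE sample 1 (adjusted p between 0.088 and 0.35). COL4A1 (log2 fold change 0.33, DESeq2 adjusted p = 0.67), COL4A2 (-0.19, 0.81) and COL17A1 (0.72, 0.51) did not pass.

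Several members are also made by vessels, blood cells, mesenchyme and neural crest, so markers of these cells were read beside them, with those of the notochord and floor plate. Of 13 vessel markers tested, 0 rose (background 3.94%) and 1 fell (background 1.3%) in DESeq2. The 14 matched summed to 1045, 2907 and 2862 normalised counts in the Sox8OE samples, against 1922, 1358 and 2061 in the Control samples. Sox8OE samples 2 and 3 were the highest, and most of the sum in those samples was PECAM1. PECAM1 had 298.9, 2346 and 2074 normalised counts in Sox8OE samples 1, 2 and 3, against 616.7, 400.2 and 879.5 in Control samples 1, 2 and 3 (adjusted p = 0.21). FLI1, a transcription factor of endothelium, was instead lower in Sox8OE (log2 fold change -3.26, DESeq2 adjusted p = 3.1e-04, and 0.053 without Control sample 1). CDH5, the cadherin of vessel walls, had 29.3, 0 and 38.7 normalised counts in Sox8OE samples 1, 2 and 3, against 28.7, 15.7 and 92.3 in Control samples 1, 2 and 3.

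Blood cell markers summed to 383.3, 372.5 and 324.7 normalised counts in the Sox8OE samples, against 228.8, 255.0 and 238.1 in the Control samples. Of the 6 tested, 0 passed in DESeq2 (background 5.24%) or in edgeR (background 0.276%), with 0 at an unadjusted DESeq2 p under 0.05 (background 21.8%). Of the 12 matched, only HBBA had no count in any sample. The globin HBAA had 0, 42.9 and 3.23 normalised counts in Sox8OE samples 1, 2 and 3, against 9.95, 5.49 and 8.31 in Control samples 1, 2 and 3. GP1BB, a thrombocyte receptor chain, had 128.3, 93.4 and 126.9 normalised counts in Sox8OE samples 1, 2 and 3, against 26.5, 45.5 and 92.3 in Control samples 1, 2 and 3, all higher in Sox8OE (adjusted p = 0.27). Sums of head mesenchyme markers were 4684, 5904 and 4978 in the Sox8OE samples, against 5540, 6681 and 5758 in the Control samples. Of the 15 tested, 2 rose (background 3.94%) and 3 fell (background 1.3%) in DESeq2. The 8 notochord and floor plate markers summed to 11653, 9970 and 9823 in the Sox8OE samples, against 4125, 6480 and 4564 in the Control samples, and most of this was SPON1. Apart from SPON1 the list went the other way or did not pass: SHH fell (log2 fold change -3.64, DESeq2 adjusted p = 4.9e-05), and FOXA2 (-2.27, adjusted p = 0.1) and CHRD (-1.74, adjusted p = 0.066) were lower in all Sox8OE samples without passing. Neural crest markers summed to 14079, 26766 and 17242 in the Sox8OE samples, against 12500, 16634 and 12592 in the Control samples, and Sox8OE sample 2 was the highest of all 6. SOX10, TFAP2B and MSX1 made up most of each sum. TFAP2B was lower in all Sox8OE samples without passing (log2 fold change -0.49, DESeq2 adjusted p = 0.26). MSX1 did not pass either (1.41, adjusted p = 0.089). The study also counts SOX10 among known otic factors, so it does not mark neural crest alone. Of the 10 tested, 5 had a log2 fold change above 0 and 5 below it. ERBB3 (3.38, DESeq2 adjusted p = 1.8e-05) and SOX10 (1.02, adjusted p = 0.032) rose, and CDH6 (-2.69, adjusted p = 7.5e-05) fell (background 3.94% higher, 1.3% lower). The call of SOX10 ended without any sample other than Sox8OE sample 1 (adjusted p between 0.065 and 0.33). The part of any of these cells in the members' values was not tested.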

How the data were processed

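Paired reads of 75 bases came from Nextera low-input libraries. The authors trimmed them with Trim Galore, aligned them to galGal6 with STAR in an nf-core pipeline and deposited raw counts per Ensembl gene from featureCounts. Strand setting, annotation release and handling of shared reads are not given in the sources used here, so reads of related or overlapping genes may be misplaced. The deposited counts include amplification copies, so counting error alone understates the error. All value columns were used.

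Groups and replicate numbers came from the sample titles. Counts of all 24356 genes were fitted with DESeq2 1.42.0 in R 4.3.3, with group as the only term, and p-values were adjusted over the 16032 genes left by its outlier and independent filters. Thresholds were an adjusted p of 0.05 and an absolute log2 fold change of 1.5, unshrunken. Alternatives used edgeR 4.0.16 and limma 3.58.1 (voom, with and without sample quality weights), TMM or total-count scaling, size factors without ribosomal protein genes, a filter of 10 counts in 3 samples, no outlier filter, a replicate block and each sample left out. The fits were tested on simulated counts. No pair of samples of the same group agreed within sampling noise, and pairs across the groups were not checked. Whether replicates came from separate embryos is not in the labels, so p-values measure the spread between these samples.

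The members and lists were chosen with earlier results of these data known. Values per sample are given for members with an adjusted p under 0.05, among the 12 smallest p-values, with the highest mean count of their role, or past both thresholds without Sox8OE sample 1, and for others where a sentence needs them. From each list of proteins that work with the members, at most 3 genes with an adjusted p under 0.05 are named. This limit was not used for the cell type markers.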

Additional observations from a re-analysis of the deposited data

How the results depend on the processing

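The 5 members past both thresholds on the high side became 0 in edgeR and 0 in limma with voom, 9 with sample quality weights, and between 3 and 7 with each sample left out. The 1 member on the low side became 0 in edgeR, 0 in limma with voom, 0 with total-count scaling, 3 with sample quality weights, 3 with the replicate block, 2 with a log2 fold threshold of 1, and between 0 and 3 with each sample left out. The 8 members with an adjusted p under 0.05 became 0 in edgeR, 0 in limma with voom, 19 with sample quality weights, and between 3 and 18 with each sample left out. Over all genes, the 686 calls became 41 in edgeR, 33 in limma with voom, 2974 with sample quality weights, 1056 with total-count scaling, 1274 with the replicate block, and between 248 and 3050 with each sample left out. The median log2 fold change of the members kept its sign, between 0.12 and 0.49. ITGA4 was reversed, at -0.00086 with sample quality weights, -0.024 without Sox8OE sample 1 and -0.025 without Control sample 1, and was at most 0.092 with another sample left out. Outside the runs that leave out a sample, of the results for the 17 members with full statistics, 123 kept direction and side of the threshold, 10 gained a call and 19 lost one. The causes were not tested. With the replicate block NID1 (adjusted p = 0.0022), HSPG2 (0.0051) and ITGB5 (0.048) also passed. Total-count scaling moved the median of all genes by 0.21 on the log2 scale. Same-numbered samples of the groups deviated together with correlations of 0.26, 0.27 and 0.08, and differently numbered ones with correlations between -0.25 and 0.05. In these deviations from the group means, every sample correlated best with its own number in the other group, a hint from the data and not the design. Without subtracting the group means, Sox8OE samples 1, 2 and 3 each correlated best with Control sample 2 among the Control samples (0.983, 0.950 and 0.962). The labels do not say whether same-numbered samples were handled together, and the main fit treats them as unpaired. With the replicate block, 12 members had an adjusted p under 0.05. Calls also increased over all genes there (686 to 1274 past both thresholds). The share of all genes at an adjusted p under 0.05 was not counted for this fit, so the 12 cannot be read as a gain of the members. LAMB3, ITGB2 and ITGA2B had few counts and ITGB7 had none, so a difference between the groups was not detectable in them.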
